A study of Homo sapiens with 6 samples.

Results

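A set of 8 genes of the oxygen-sensing pathway was followed: the hypoxia-inducible factor (HIF) subunits HIF1A, EPAS1 and ARNT, the HIF hydroxylases EGLN1, EGLN2, EGLN3 and HIF1AN, and the ubiquitin ligase subunit VHL. They were taken by symbol from 2 gene count tables, 1 per treatment, which together list 13289 genes. Of these 8 genes, 7 had a row in both tables, and EGLN3 had a row in neither, so that it is not analysed here. The lowest row total of any listed gene was 22 counts in the table of DMSO libraries and 12 counts in the table of ATRA libraries.

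The cells were NB4, a human line established from acute promyelocytic leukemia, which matures towards granulocytes under all-trans retinoic acid (ATRA). They carried a control construct or 1 of 2 short hairpin RNAs against SMARCD2, which encodes a component of SWI/SNF (BAF) chromatin remodellers, and received ATRA at 1 µM or its vehicle DMSO. Each construct gave 1 RNA-seq library per treatment, so that 3 DMSO libraries (control, hairpin 1, hairpin 2) stood against 3 ATRA libraries, and within a treatment 1 control library stood against 2 knockdown libraries. The length of treatment and the oxygen tension of the cultures are not given in the sources. All libraries come from 1 cell line, and the labels do not say whether libraries came from separate cultures, so p-values measure only the spread between these libraries, which may be technical.

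HIF is a transcription factor made of an oxygen-labile alpha subunit, encoded by HIF1A or EPAS1, and the stable partner encoded by ARNT. In the presence of oxygen and 2-oxoglutarate, the prolyl hydroxylases encoded by EGLN1, EGLN2 and EGLN3 mark the alpha subunit for the VHL ubiquitin ligase, and the asparaginyl hydroxylase encoded by HIF1AN blocks its contact with coactivators. In myeloid cells HIF is known for its part in glycolysis and in the survival of neutrophils, and because alpha subunits are controlled mainly as protein, RNA counts measure neither their amount nor their activity.

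HIF binds the core letters ACGTG or GCGTG, and some genes of the pathway are themselves known HIF targets, so the bases before the start sites of the members that carry such a core are shown. RefSeq entries (GRCh38.p14) were found for 7 of the 8 members, and the window before a start site covered 250 bases. Sequences run 5′ to 3′ with each core, on either strand, in capitals. Where the core lies near or in annotated untranslated exon, as for EGLN1, whose whole window is annotated so, and EGLN2, the core is shown with 10 bases on each side, which for EGLN1 run just past the start, and the EPAS1 window is shown up to its annotated exon. EGLN1, EGLN2, EPAS1 and HIF1A had a core, which began 13, 49, 117 and 204 bases before the start.
EGLN1, chr1:231422286-231422310, minus strand: gccgtggtgtACGTGcagagcgcgc
EGLN2, chr19:40799132-40799157, plus strand: ggggcgcggtCACGTGcccaccgggc
EPAS1, chr2:46297157-46297401, plus strand: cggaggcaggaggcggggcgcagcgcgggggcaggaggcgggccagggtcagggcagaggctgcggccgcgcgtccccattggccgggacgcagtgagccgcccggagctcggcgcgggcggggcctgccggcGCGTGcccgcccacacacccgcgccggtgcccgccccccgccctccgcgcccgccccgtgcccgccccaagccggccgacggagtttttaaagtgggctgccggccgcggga
HIF1A, chr14:61695263-61695512, plus strand: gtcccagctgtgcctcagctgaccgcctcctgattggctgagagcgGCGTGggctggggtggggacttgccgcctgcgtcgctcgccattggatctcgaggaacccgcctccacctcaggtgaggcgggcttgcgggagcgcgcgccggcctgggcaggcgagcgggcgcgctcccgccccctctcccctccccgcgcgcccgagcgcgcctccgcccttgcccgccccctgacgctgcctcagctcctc

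The EGLN2 hexamer reads ACGTG on both strands, EGLN1 holds ACGTG, and EPAS1 and HIF1A hold GCGTG. The windows of ARNT, EGLN3 and HIF1AN, and a further start site each of HIF1A and EGLN2, held no core. Among 35116 promoter windows of the same length, 43.2% held ACGTG or GCGTG on either strand, 18.5% held ACGTG and 32.2% held GCGTG. The windows of EGLN1, EPAS1, EGLN2 and HIF1A shown above were rich in G and C, at 81.2%, 80.8%, 76% and 75.6%, against a median of 58% over all windows. A match to these letters is a description of the sequence and not a measured binding site.

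Library totals ranged from 29291209 to 58099733 counts, after the 2 run columns of a library were added up. Levels are given as CPM, counts relative to a library size scaled by TMM, a normalization set by the bulk of genes. SMARCD2, the targeted gene, stood at 95.5 CPM in the DMSO control, 39.0 with hairpin 1 and 25.7 with hairpin 2, and at 122, 64.2 and 35.6 CPM in ATRA. Run 1 supplied between 53.1% and 54.6% of the counts of control libraries but between 70.6% and 80.7% of those of knockdown libraries. The promyelocyte markers, 7 genes led by the azurophil granule enzyme MPO, summed to between 10184 and 10415 CPM in DMSO and between 4667 and 6352 CPM in ATRA, a sum carried by MPO (9866 to 10044 CPM in DMSO, 4298 to 5764 in ATRA). CTSG, at 62.3 to 74.5 CPM in DMSO and 2.94 to 5.41 CPM in ATRA, fell as well. So did AZU1, at 154 to 204 CPM in DMSO and 78.6 to 112 CPM in ATRA. PRTN3 and CD33 did not follow MPO. PRTN3 stood at 37.0 to 75.3 CPM in DMSO and at 232 to 411 CPM in ATRA, and CD33 at 47.8 to 52.3 and 54.6 to 61.6 CPM. KIT stayed below 1 CPM in both treatments, and ELANE stayed below 1 CPM in DMSO and had no row in ATRA. The erythroid markers HBB and HBA1 had no row in either table, and the monocyte marker CD14 had a row for ATRA only, at 3.92 to 5.31 CPM. The 4 monocyte markers summed to 338 to 370 CPM in DMSO and 231 to 248 CPM in ATRA, led by CSF1R. The 4 lymphoid markers, almost all CD4, summed to 76.2 to 82.6 and 194 to 243 CPM. The 5 stromal and endothelial markers summed to 5.06 to 7.36 and 21.8 to 25.0 CPM. These were led by PECAM1, at 4.48 to 6.75 CPM in DMSO and 16.7 to 18.9 CPM in ATRA. COL1A1 and CDH5 had rows for ATRA only, VWF for DMSO only and COL1A2 for neither, so the stromal and endothelial sums cover different genes. The part of these shifts in the ATRA differences below was not tested. In bulk RNA, fewer cells of a type and less RNA per cell cannot be told apart.

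With ATRA, transcripts of both alpha subunits, of EGLN1, of HIF1AN and of VHL rose, and EGLN2 fell. Differences between treatments were tested with edgeR's quasi-likelihood test over all 12301 genes in both tables, adjusted after Benjamini and Hochberg and called at 0.05. Of the 7 members tested, 5 were called higher, 1 lower and 1 not called, against a background of 74% of all genes called (36.2% higher, 37.8% lower), so the number called is near that of genes at large. The member changes had a median of 0.31 on the log2 scale, against -0.01 over all genes.

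EPAS1, which encodes HIF-2alpha, showed the largest change of the members. In DMSO it stood at 1.17 CPM in the control, 1.23 CPM under hairpin 1 and 1.09 CPM under hairpin 2, from 36, 74 and 48 counts. With ATRA it stood at 41.2, 33.5 and 33.2 CPM in the same order, from 1162, 1632 and 1416 counts. Each ATRA library thus lay far above each DMSO library, and within ATRA the control library was the highest. The mean rose from 1.16 ± 0.0669 CPM (SD, n = 3) to 35.9 ± 4.54 CPM (SD, n = 3), a 30.9-fold ratio of means. The fitted log2 change was 4.91 ± 0.10 (SE; edgeR adjusted p = 3.7e-09), rank 76 from the highest among 12301 genes. Taken within each construct, EPAS1 was 35.3-fold higher in control cells, 27.3-fold under hairpin 1 and 30.3-fold under hairpin 2. Leaving out each library in turn kept the change between 4.83 and 5.03.

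HIF1A, which encodes HIF-1alpha, was already present in DMSO, at 101 CPM in control cells, 105 CPM under hairpin 1 and 117 CPM under hairpin 2. With ATRA its level was 210, 202 and 194 CPM. The treatments did not overlap, and the constructs stood in the opposite order in ATRA, with the control highest and hairpin 2 lowest. The log2 change was 0.90 ± 0.06 (SE; edgeR adjusted p = 2.5e-06), a ratio of means of 1.87. Within constructs the ratio was 2.07 (control), 1.92 (hairpin 1) and 1.66 (hairpin 2). The antisense genes HIF1A-AS1 and HIF1A-AS2 overlap HIF1A in the annotation, and since the sources do not say whether counting used strand, their reads cannot be told apart from those of HIF1A.

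ARNT, the shared beta subunit, changed least. It stood at 42.0, 40.1 and 42.7 CPM in DMSO and at 45.4, 45.8 and 45 CPM in ATRA, for the control, hairpin 1 and hairpin 2. The ATRA libraries all lay above the DMSO libraries, but by a small margin, and the difference of 0.13 ± 0.05 (log2, SE) was not called (edgeR adjusted p = 0.053). With total counts in place of TMM scaling it was -0.0037, and with median-of-ratios scaling it was 0.14 and called (adjusted p = 0.037). Total-count scaling moved the median of all genes by -0.13, and the higher share of all called genes from 48.9% (4450 higher, 4650 lower) to 38.9% (3637 higher, 5722 lower).

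**Figure D1:**
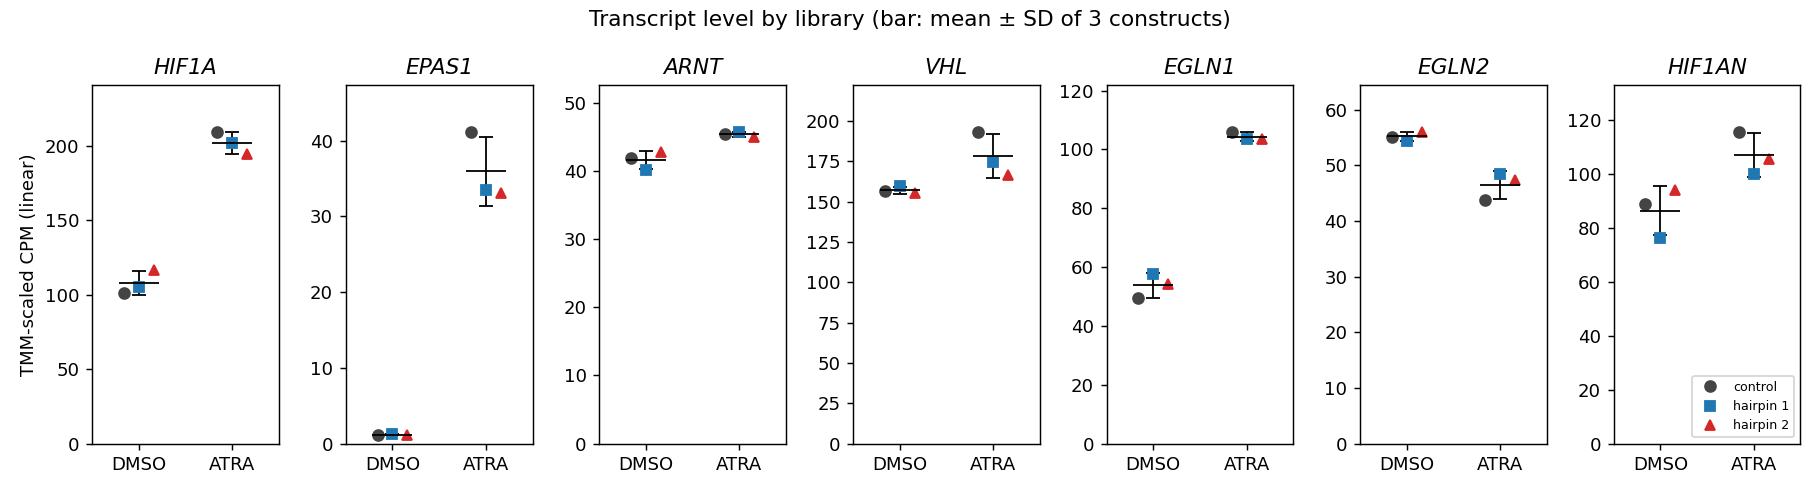
Transcript level of each member in each library, in TMM-scaled CPM on a linear axis from 0, with its own scale per gene; symbols mark the control construct and the hairpins, and bars the mean ± SD of the 3 constructs. The EPAS1 libraries stood near 1 CPM in DMSO and between 33.1 and 41.2 CPM in ATRA, while the ARNT libraries moved by a few CPM.

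EGLN1 encodes PHD2, the main prolyl hydroxylase acting on HIF-1alpha in most cells. It stood at 49.4 CPM in the DMSO control, 57.6 CPM with hairpin 1 and 54.4 CPM with hairpin 2. In ATRA the levels were 106, 103 and 104 CPM. The ATRA libraries stood close together and all far above the DMSO libraries, among which the control was lowest. The log2 change was 0.96 ± 0.06 (SE; edgeR adjusted p = 1.1e-06), close in size to that of HIF1A, although the difference between these changes was not tested. Within constructs the ratio was 2.15 (control), 1.80 (hairpin 1) and 1.91 (hairpin 2).

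EGLN2, which encodes PHD1, moved the other way. It stood at 55.2, 54.4 and 56.1 CPM in DMSO, a spread of under 2 CPM, and at 43.7, 48.5 and 47.4 CPM in ATRA, for the control, hairpin 1 and hairpin 2. All ATRA libraries lay below all DMSO libraries, with the control lowest. The log2 change was -0.25 ± 0.05 (SE; edgeR adjusted p = 0.0025), and it was called on leaving out each library in turn. A readthrough gene, RAB4B-EGLN2, is annotated on the same strand, and the sources do not say how the counting split reads between them.

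HIF1AN encodes FIH, the asparaginyl hydroxylase that limits transcription by the alpha subunits. Its level was 89.0 CPM in the DMSO control, 76.3 with hairpin 1 and 94.0 with hairpin 2, and 116, 100 and 106 CPM in ATRA. The treatments did not overlap, but hairpin 2 in DMSO came within 7 CPM of hairpin 1 in ATRA. The log2 change was 0.31 ± 0.08 (SE; edgeR adjusted p = 0.0062), which fell to 0.18 with total-count scaling (adjusted p = 0.070). HIF1AN overlaps NDUFB8, a respiratory complex I gene, on the other strand, and reads of the overlap cannot be told apart without strand.

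VHL, the substrate-binding subunit of the ubiquitin ligase, stood at 156, 160 and 155 CPM in DMSO and at 193, 174 and 167 CPM in ATRA, for the control, hairpin 1 and hairpin 2. The DMSO libraries were tightly grouped, and the ATRA control stood above both ATRA knockdown libraries. The log2 change of 0.18 ± 0.05 (SE; edgeR adjusted p = 0.014) was called, but not in every fit that left out a library. It was 0.12 without the DMSO control (adjusted p = 0.070), 0.12 without the ATRA control (adjusted p = 0.081) and 0.18 without hairpin 1 in ATRA (adjusted p = 0.055). Without either control the treatment term comes from the hairpin libraries alone, so those fits are not separate results. With total-count scaling it was 0.048 (adjusted p = 0.41). Within constructs the ratio was 1.24 (control), 1.09 (hairpin 1) and 1.07 (hairpin 2).

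All 7 members had no overlap between the treatments, against 77.1% of all genes. EPAS1 was the member with an ATRA change of at least 1 on the log2 scale, a size that 11.9% of all genes reached in the higher direction. HIF1A and EGLN1 lay just under it.

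To compare levels between genes, CPM was divided by the length of all annotated exons of the gene in kilobases (GENCODE v29, GRCh38), a length that does not follow which isoforms NB4 uses. In DMSO the order was VHL at 37.3 ± 0.507 (SD, n = 3), HIF1A at 20.9 ± 1.56, EGLN2 at 8.40 ± 0.125, EGLN1 at 7.40 ± 0.567, ARNT at 6.39 ± 0.204, HIF1AN at 6.20 ± 0.655 and EPAS1 at 0.159 ± 0.00916 CPM per kilobase. ARNT and HIF1AN, neighbours in this order, overlapped in their libraries, while EGLN2 lay above EGLN1 in all 3. In ATRA the order was VHL at 42.3 ± 3.25, HIF1A at 39.2 ± 1.48, EGLN1 at 14.4 ± 0.200, HIF1AN at 7.68 ± 0.572, EGLN2 at 7.08 ± 0.381, ARNT at 6.97 ± 0.0586 and EPAS1 at 4.92 ± 0.622. There VHL overlapped HIF1A, and EGLN2 overlapped both of its neighbours, HIF1AN and ARNT.

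The balance between related members thus differed by treatment on this per-kilobase scale. HIF1A exceeded EPAS1 by 121- to 151-fold in the DMSO libraries and by 7.21- to 8.55-fold in the ATRA libraries. EGLN1 stood at 0.811 to 0.958 times EGLN2 in DMSO and at 1.93 to 2.20 times EGLN2 in ATRA. HIF1A stood at 3.06 to 3.46 times its partner ARNT in DMSO and at 5.46 to 5.84 times in ATRA. In each of these ratios the DMSO and ATRA libraries did not overlap.

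The genes most like each member were those with the smallest root-mean-square difference of log2(CPM + 0.5), centred on the gene's mean over the 6 libraries, among genes whose mean was 10 CPM or more. For EPAS1 these were ARHGAP9 (0.11), KCNE1 (0.13) and PLCB2 (0.13). For HIF1A they were TMEM11, DAZAP2 and WDR1 (0.029 to 0.038), and for EGLN1 VPS37C, CAPZA1 and FGFR1OP2 (0.026 to 0.037). For ARNT they were WDR82, TM9SF1 and RTFDC1, for VHL NDUFV2, RBM22 and HCRTR1, for EGLN2 GOPC, WDR6 and FAM65B, and for HIF1AN FBXO42, HELB and OVCA2. All these points share the same 6 libraries and their ATRA split.

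Between SMARCD2 knockdown and control the members differed by at most 0.31 on the log2 scale in either treatment, and no member passed the threshold. In DMSO, 0 of 7 members were called by edgeR's quasi-likelihood test, against 0% of all genes, with 7.06% of all genes (868) at an unadjusted p under 0.05 and 38 genes called by DESeq2. In ATRA, 0 of 7 were called against 0.00813% of all genes (1 gene), with 1329 genes (10.8%) at an unadjusted p under 0.05 and 52 called by DESeq2. SMARCD2 itself was not called in these edgeR fits, at -1.55 ± 0.32 (log2, SE) in DMSO and -1.29 ± 0.31 in ATRA. In the fit over both treatments it also missed the threshold with edgeR (-1.42 ± 0.22, adjusted p = 0.38) but not with DESeq2 (-1.43, adjusted p = 0.029). A miss here therefore does not show that a gene did not differ.

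In ATRA, both hairpins were below the control for EPAS1, by a log2 difference of -0.30 with hairpin 1 and -0.31 with hairpin 2. The fitted difference was -0.31 ± 0.10 (SE; edgeR adjusted p = 0.39, under 0.05 without adjustment), and its adjusted p lay between 0.15 and 0.99 over the alternatives tried. The control library stood above both hairpins in each run, at 42.5 against 33.1 and 33.7 CPM in run 1, and at 39.7 against 34.7 and 31.8 CPM in run 2. In the authors' deposited table EPAS1 had a log2 change of -0.26 with an adjusted p of 0.032, one of 535 genes of 12838 (4.17%) past 0.05 there. Fold changes in the authors' deposited table can be far smaller than those fitted here. SMARCD2 in ATRA stood at -0.40 there (adjusted p = 0.0073) and at -1.29 in the edgeR fit. For EPAS1 the values were closer, at -0.26 and -0.31, while EGLN2 in ATRA stood at 0.074 there and 0.13 in the edgeR fit. That table holds each run as a column, and the sources do not say whether its test took runs as separate samples. In DMSO, where EPAS1 had few counts, hairpin 1 was above the control and hairpin 2 below it, and the fitted difference was 0.00028 ± 0.21 (SE).

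VHL was likewise below the control with both hairpins in ATRA, by -0.18 ± 0.06 (log2, SE; edgeR adjusted p = 0.40, under 0.05 without adjustment), and at 0.0092 ± 0.064 in DMSO. In the authors' deposited table its ATRA change was -0.18 with an adjusted p of 0.10. HIF1AN was lower with both hairpins in ATRA (-0.17 ± 0.12, edgeR adjusted p = 0.63), while in DMSO the hairpins lay on either side of the control. EGLN2 was higher with both hairpins in ATRA (0.13 ± 0.07, edgeR adjusted p = 0.55). ARNT differed by -0.019 ± 0.080 in DMSO and by -0.00064 ± 0.080 in ATRA, with hairpins on either side of the control in both.

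**Figure D2:**
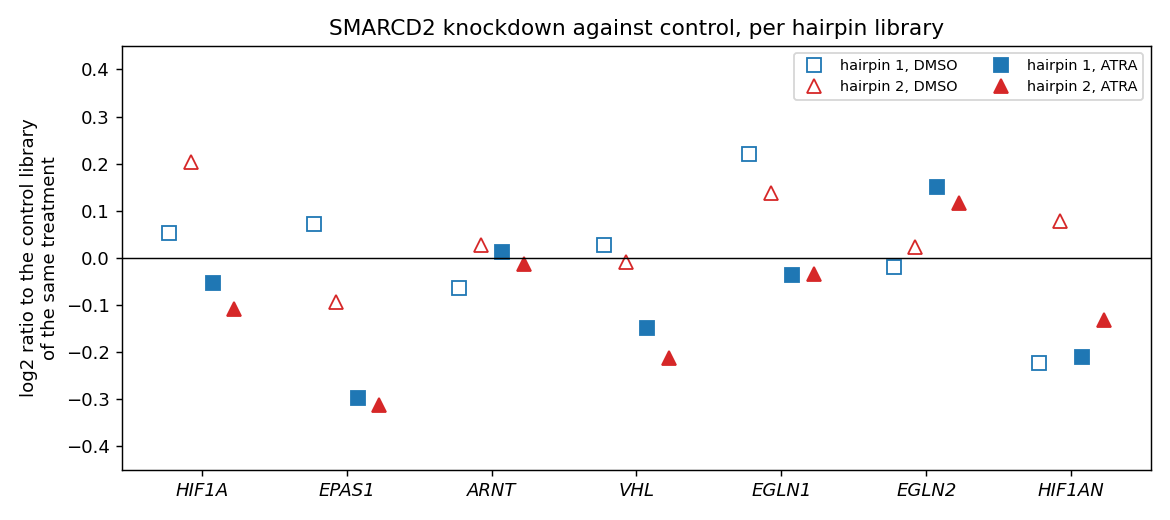
Log2 ratio of each hairpin library to the control library of the same treatment, for each member; open symbols are DMSO and filled symbols ATRA, and both hairpins of a treatment share 1 control library. EPAS1 and VHL lay below 0 with both hairpins in ATRA, and HIF1A and EGLN1 lay above 0 in DMSO and below 0 in ATRA.

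HIF1A and EGLN1 were above the control with both hairpins in DMSO and below it with both in ATRA, and 25.2% of all genes had the hairpins on opposite sides of the control in the treatments, in either order. EGLN1 differed by 0.18 ± 0.07 in DMSO (SE; edgeR adjusted p = 0.71, under 0.05 without adjustment) and by -0.035 ± 0.068 in ATRA (edgeR adjusted p = 0.89). HIF1A differed by 0.13 ± 0.08 in DMSO (edgeR adjusted p = 0.78), with 0.22 without hairpin 1 and 0.059 without hairpin 2, and by -0.081 ± 0.078 in ATRA (edgeR adjusted p = 0.73). The ATRA response of each gene was compared between knockdown and control as an interaction. The difference, knockdown minus control on the log2 scale, was -0.21 ± 0.11 for HIF1A (edgeR adjusted p = 0.67) and -0.22 ± 0.10 for EGLN1 (adjusted p = 0.65). It was -0.31 ± 0.24 for EPAS1 and -0.19 ± 0.09 for VHL, and 0 of 7 members were called, against 0.0488% of all genes (6 genes), with 979 genes (7.96%) at an unadjusted p under 0.05.

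Over both treatments together, 0 of 7 members were called against 0% of all genes, with 1003 genes (8.15%) at an unadjusted p under 0.05 and 48 called by DESeq2. The largest of the member differences was that of EPAS1, at -0.25 ± 0.10 (SE; edgeR adjusted p = 0.59). Without the ATRA control library the EPAS1 difference was -0.00036, and without the DMSO control library it was -0.31. The first of these fits takes the knockdown term from DMSO alone, where EPAS1 had few counts, and the second from ATRA alone. They therefore repeat the differences within each treatment and do not show how far the result depends on 1 library. No member had all 4 knockdown libraries on 1 side of their controls, against 14.6% of all genes above and 14.2% below. Between the hairpins, 0 of 7 members were called against 2.03% of all genes (250 of 12300, 1.3% higher and 0.732% lower, with 11.2% at an unadjusted p under 0.05). HIF1AN was 0.19 ± 0.06 higher with hairpin 2 than with hairpin 1 (SE; edgeR adjusted p = 0.13).

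Other genes of the pathway were grouped by role, and the counts below are of genes in both tables called by the same edgeR test for ATRA against DMSO. Of 11 relatives of the HIF subunits (bHLH-PAS factors and the p160 coactivators), 6 rose and 3 fell, with a median of 0.29. The nuclear receptor coactivators NCOA3 (2.33 ± 0.07) and NCOA2 (1.38 ± 0.07) rose, and NPAS1 (-1.90 ± 0.06) and the clock factor NPAS2 (-0.98 ± 0.30) fell. NPAS2 had low counts, at a mean of 0.92 CPM in DMSO and 0.45 CPM in ATRA. HIF3A, ARNT2 and SIM1 had no row in either table. Of 12 HIF coactivators and competitors, 7 rose and 5 fell, with a median of 0.16. Pyruvate kinase PKM (2.26 ± 0.10) and the repressors BHLHE40 (1.73 ± 0.16) and BHLHE41 (1.32 ± 0.17) rose, and CITED4, which competes for p300, fell (-1.06 ± 0.12).

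Around VHL, 6 of 13 subunits and partners of its ligase rose and 3 fell, with a median of 0.12. The scaffold gene AJUBA fell (-1.01 ± 0.10), and the deubiquitinase genes USP20 (0.57 ± 0.05) and USP8 (0.41 ± 0.06) and the prefoldin subunit VBP1 (0.51 ± 0.06), a VHL-binding protein, rose. Of 18 genes acting on alpha subunit stability by other routes, 8 rose and 6 fell, with a median of 0.03. The kinase gene PLK3 (2.58 ± 0.12), the polyamine enzyme gene SAT1 (1.88 ± 0.10) and the lectin gene OS9 (1.05 ± 0.04) rose, and SIAH2, a ligase that targets prolyl hydroxylases, fell (-0.93 ± 0.12). Of 15 inputs to HIF1A synthesis, 5 rose and 6 fell, with a median of -0.10. DDIT4, an inhibitor of mTORC1, fell (-1.38 ± 0.22), and NFKB1 (1.05 ± 0.05) and SP1 (0.66 ± 0.05) rose.

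Of 15 other protein hydroxylases that use 2-oxoglutarate, 3 rose and 10 fell, with a median of -0.30. The transmembrane prolyl hydroxylase P4HTM (-1.49 ± 0.21), the ribosomal oxygenases MINA (-1.01 ± 0.08) and C14orf169 (-0.91 ± 0.09), and ASPH (-0.92 ± 0.05), an aspartyl/asparaginyl hydroxylase, fell, in the direction of EGLN2 and not of EGLN1 or HIF1AN. P4HTM was low throughout, at a mean of 2.29 CPM in DMSO and 0.81 CPM in ATRA. For 22 genes of 2-oxoglutarate supply and of metabolites that inhibit these enzymes, 9 rose and 9 fell, with a median of 0.05. The isocitrate dehydrogenases IDH1 (1.36 ± 0.04) and IDH3G (0.87 ± 0.04) and the 2-oxoglutarate carrier SLC25A11 (0.63 ± 0.06) rose, and mitochondrial IDH2 fell (-0.64 ± 0.08). Of 38 HIF target genes, 11 rose and 9 fell, with a median of 0.01 against -0.01 over all genes. ANGPTL4, which encodes a lipoprotein lipase inhibitor and is also induced by lipids, rose by 5.91 ± 0.17, and the glucose transporter gene SLC2A3 by 1.12 ± 0.22. DDIT4 and BHLHE40, given above, are also on this list, where DDIT4 fell (-1.38 ± 0.22) and BHLHE40 rose (1.73 ± 0.16).

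**Figure D3:**
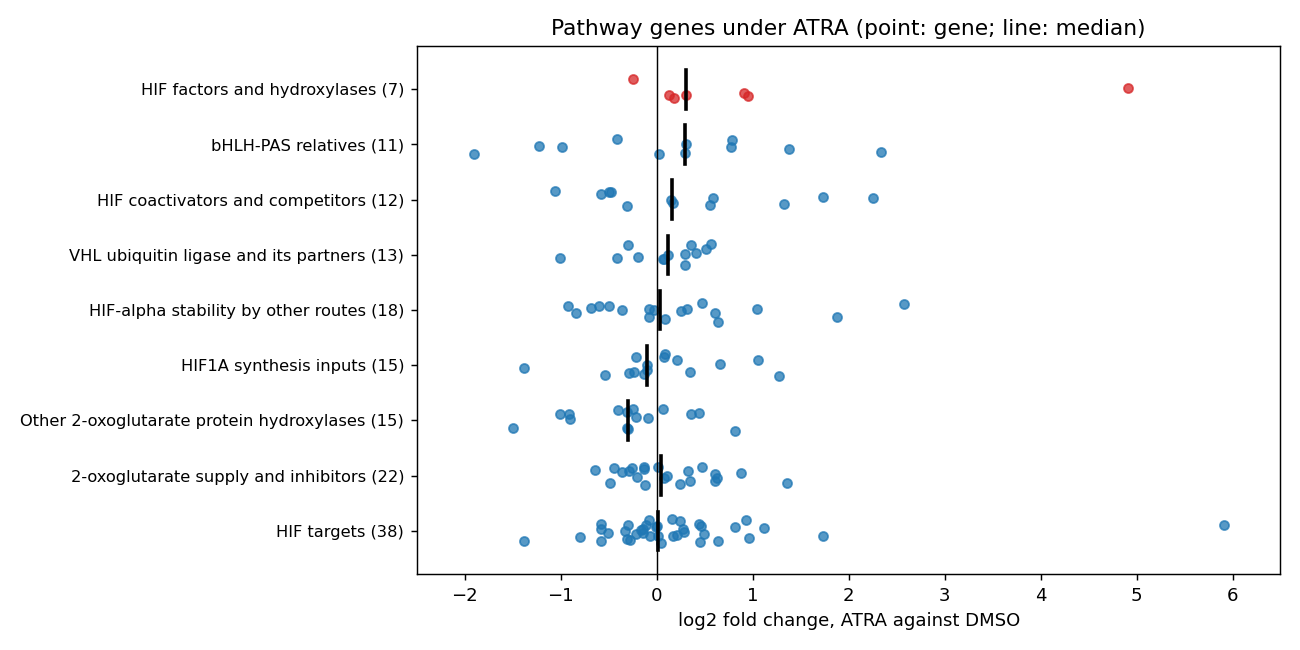
Log2 change from DMSO to ATRA of each tested gene in the member set and in the pathway lists; points are genes, black lines are medians and numbers in brackets are genes in both tables. EPAS1 stood at 4.91 while the medians of the lists lay between -0.30 and 0.31, and the 38 HIF targets centred on 0.01.

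Knockdown left these lists without a called gene in either treatment or over both, by the same edgeR test. Over both treatments, the gene of each list with the largest difference whose 4 knockdown libraries lay on 1 side of their controls was CITED4 (-0.98 ± 0.13, adjusted p = 0.20) among the competitors and STC2 (-0.53 ± 0.13, adjusted p = 0.46) among the targets. PLK3 (-0.34 ± 0.12) was that gene among the stability genes, SLC23A2, a vitamin C transporter, among the supply genes (-0.25 ± 0.08), and TCEB2, which encodes elongin B, among the VHL ligase genes (-0.10 ± 0.07). In the other lists it was SIM2 (-0.73 ± 0.63, at under 1 CPM), ASPH (0.13 ± 0.06) and TSC2 (0.05 ± 0.05).

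The 38 HIF targets lay mostly above the control in DMSO and below it in ATRA. In DMSO, 33 of 38 had a knockdown difference above 0, with a median of 0.25, and in ATRA 1 of 38 did, with a median of -0.33, against medians over all genes of 0.0011 and 0.0044. Hairpin 1 placed 35 of 38 above the DMSO control and 2 of 38 above the ATRA control, and hairpin 2 placed 32 and 1, with 49.6% to 51.4% of all genes above. Each treatment has 1 control library, which both hairpins and all targets share, so these counts are not independent. The difference between treatments had a median of -0.57, and ADM (-1.5 ± 0.14, edgeR adjusted p = 0.037), BNIP3 (-1.10 ± 0.12, adjusted p = 0.045) and PFKFB4 (-1.30 ± 0.11, adjusted p = 0.018) were called lower. The members' median was 0.0016 in DMSO and -0.081 in ATRA. Their difference between treatments had a median of -0.19, with 2 of 7 above 0, against a median of 0.00038 over all genes. The share of run 1 differed between control and knockdown libraries as given above, and its part in the targets' pattern was not tested.

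**Figure D4:**
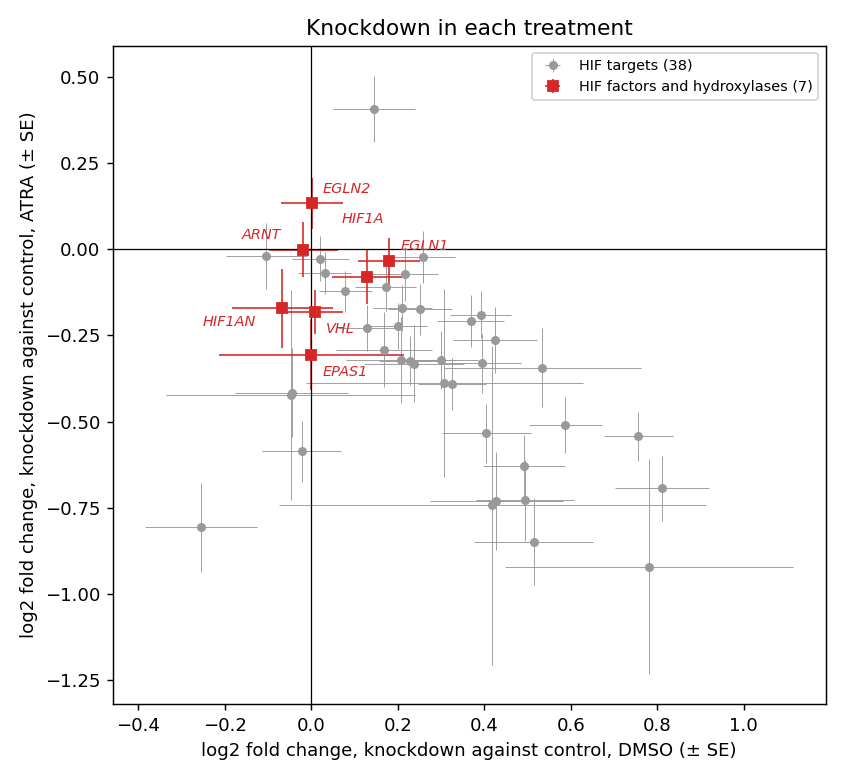
Knockdown against control in DMSO (x axis) and in ATRA (y axis), as fitted log2 differences with SE bars, for the 7 members (labelled squares) and 38 HIF targets (grey points). The members stood within 0.31 of 0 on both axes, while 33 targets lay right of 0 and 37 below it.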

How the data were processed

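RNA-seq was measured in 6 NB4 libraries. Per the submitters' processing notes, the tools were STAR, DESeq2, Picard 2.5.0 and bcl2fastq and the build was GRCh37.p13, in roles that are not stated. The sources name neither the read counter nor its use of strand. As deposited, the authors gave 1 table per treatment (12752 genes for DMSO, 12838 for ATRA, 12301 shared) with raw counts per gene and run. The same tables, per the file headers, hold the authors' log2 fold change and their adjusted p-value for knockdown against control. The 12 columns of normalized values were not used.

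Counts of both runs were summed per library, and runs were not replicates. Tests were run in R 4.3.3, with edgeR 4.0.16 (filterByExpr, TMM, quasi-likelihood test, Benjamini-Hochberg), DESeq2 1.42.0 and limma 3.58.1. Figures and sequences used matplotlib 3.10.9 and pandas 2.3.3 in Python 3.11.15. The fit for ATRA and for knockdown over both treatments had knockdown state and treatment as terms. Fits within a treatment, and the difference in ATRA response, used 4 groups, in which the spread comes from the hairpins (2 residual degrees of freedom) and the single control library is taken to vary as they do. Standard errors were derived from the F statistic, as absolute log2 change over its square root. The scripts were tested on simulated data.

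All 8 members and SMARCD2 were named whatever their values. From each list, the 4 called genes with the largest ATRA change were named, except for 1 that is not reported here, and for knockdown the gene with the largest difference whose 4 knockdown libraries lay on 1 side. Members and lists were chosen with earlier results of these data known, so no list test is given. Alternatives were other scalings, no filter, DESeq2, limma-voom, 1 run, each library left out, the construct as a block, and a treatment's own table. Coordinates are RefSeq's (GRCh38.p14), and counts were not matched to them by position.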

Additional observations from a re-analysis of the deposited data

Results flagged for a closer look

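HIF1A and EGLN1 are singled out because both hairpin libraries lay above the control in DMSO and below it in ATRA. Both hairpins share 1 control library per treatment, so their positions are not independent. The difference in ATRA response, knockdown minus control, was -0.21 on the log2 scale for HIF1A and -0.22 for EGLN1. The difference itself was tested as an interaction with edgeR's quasi-likelihood test and passed the threshold for neither gene (adjusted p = 0.67 and 0.65). Leaving out each knockdown library in turn kept it between -0.30 and -0.14 for HIF1A and between -0.27 and -0.19 for EGLN1. Opposite sides of the control in the treatments, in either order, were found in 25.2% of all genes. The pattern is not particular to these genes, since most HIF targets had it too. Hairpin 1 placed 35 of 38 targets above the DMSO control and 2 above the ATRA control, and hairpin 2 placed 32 and 1. The targets' difference in ATRA response was larger, with a median of -0.57.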

How the results depend on the processing

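EPAS1, HIF1A, EGLN1 and EGLN2 kept the direction and call of their ATRA change under every alternative run, and the members called numbered from 4 (total counts) to 7 (median-of-ratios scaling), with 5 to 7 on leaving out a library. With total counts ARNT was -0.0037 and VHL and HIF1AN lost their calls. The knockdown comparisons called 0 members under every alternative run. Their signs near 0 were not stable, and apart from the fits over both treatments without a control library, the cause was not tested. For knockdown in DMSO, EPAS1 was -0.013 with total counts, -0.0099 with limma-voom, -0.020 with run 1, -0.0046 in its own table, and -0.080 to 0.078 on leaving out a library. VHL was -0.0033 with total counts and -0.042 with run 1, EGLN2 -0.011 with total counts, -0.035 with run 1, -0.012 with run 2 and -0.012 to 0.037 on leaving out a library. ARNT was 0.024 and HIF1AN 0.027 with run 1, and they spanned -0.057 to 0.040 and -0.22 to 0.092 on leaving out a library. In ATRA, ARNT was 0.019 with run 1, 0.055 with run 2 and -0.013 to 0.0061 on leaving out a library. Over both treatments ARNT was 0.022 with run 1 and 0.025 with run 2. Leaving out a library there gave -0.027 to 0.015 for ARNT, -0.085 to 0.13 for HIF1A and -0.31 to -0.00036 for EPAS1. For VHL it gave -0.18 to 0.0092, and for EGLN1 -0.038 to 0.18. Without the control of 1 treatment, the knockdown term comes from the other treatment alone, so these ranges take in the differences within each treatment. The difference in ATRA response was -0.0049 for ARNT with run 1, and leaving out a library gave -0.045 to 0.053 for ARNT and -0.27 to 0.042 for HIF1AN. Between hairpins, EGLN1 was 0.013 and EGLN2 -0.087 with run 2, and leaving out a library was not run, since no residual degree of freedom remained. SMARCD2 over both treatments was called by DESeq2 (-1.43, adjusted p = 0.029), and leaving out a library gave -1.65 to -1.28.

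The construct label pairs the treatments, but deviations of a construct in DMSO and in ATRA correlated across 9467 genes at r = 0.08 (control), 0.19 (hairpin 1) and 0.21 (hairpin 2), so the pairing was not used. Each construct correlated best with itself, a hint from the data and not the design. With the construct as a replicate block, 6 members were called for ATRA and 0 for knockdown, EPAS1 in DMSO was -0.0016, its adjusted p in ATRA was 0.15, and all genes called for knockdown numbered 116 in DMSO and 348 in ATRA. SMARCD2 was then called, at -1.60 in DMSO and -1.35 in ATRA. EPAS1 in DMSO rests on 36 to 74 counts per library, which limits its precision there.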

Other observations

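Among the HIF targets, CA9, a carbonic anhydrase, had a row for DMSO only, at 0.42 to 1.23 CPM, and its relative CA12 for ATRA only, at 0.19 to 0.67 CPM. Among the other hydroxylases, the collagen prolyl hydroxylase P4HA2 (0.68 to 0.98 CPM) and the histone demethylase HR (1.01 to 2.83 CPM) had rows for DMSO only.

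Between the hairpins, 4 of 146 listed genes (2.74%, against 2.03% of all genes) passed edgeR's quasi-likelihood test, all lower with hairpin 2 than with hairpin 1. They were the translation repressor EIF4EBP1 (-0.26 ± 0.06, adjusted p = 0.032), the lactate dehydrogenase gene LDHA (-0.24 ± 0.05, adjusted p = 0.0066), NDRG1 (-0.25 ± 0.06, adjusted p = 0.035) and the succinate dehydrogenase subunit SDHD (-0.22 ± 0.06, adjusted p = 0.049).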
